A study of Arabidopsis thaliana with 25 samples.

Results

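The methylation of 7 rRNA cytosines was measured in *Arabidopsis thaliana* seedlings with insertions in genes of the TRM4 and TRDMT1 families. The genotypes were chosen as all columns of the second of the study's experiments, which held 5 of the 25 libraries of the series. These were *trm4a*, *trm4b-1*, *trdmt1*, the double mutant *trdmt1 trm4b* and wild type, with 1 library each. Each mutant line carries a T-DNA insertion in the Columbia background, and the double mutant was obtained by crossing *trdmt1* with *trm4b-1*. All seedlings, wild type included, were grown on plates of Murashige and Skoog medium with sucrose in long days and taken whole 10 days after germination. The other 20 libraries came from an experiment on soil-grown seedlings with mutants of NSUN5 and the NOP2 paralogs. They are used here for size, and their wild type also as a second comparator and to set a limit for the alternatives. Each of the mutants was represented by 1 allele. The tables hold no transcript levels, so the loss of TRM4A, TRM4B or TRDMT1 mRNA was not checked here. The study itself reports null expression of TRM4A and TRM4B in its insertion lines by RT-PCR. It also reports tRNA sites without detectable methylation in *trm4b-1* and in *trdmt1*.

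Cytosine in RNA can carry a methyl group on carbon 5 (m5C), and families of methyltransferases place it at fixed positions of tRNA and rRNA. TRM4, called NSUN2 in animals, methylates cytosines where the variable loop of a tRNA meets the T stem. *Arabidopsis* has 2 genes of this type, TRM4A (AT4G40000) and TRM4B (AT2G22400), of which TRM4B is the one with known tRNA sites. TRM4A lacks a motif that catalysis needs, and no tRNA is known to depend on it in *Arabidopsis*, so *trm4a* is not a mutant with a known loss of tRNA methylation. TRDMT1 (AT5G25480, symbol DNMT2 in RefSeq) resembles a DNA methyltransferase but methylates a cytosine of the anticodon loop, C38, in a few tRNAs. NSUN5 (AT5G26180), the plant relative of yeast Rcm1, acts on 1 position of the 25S rRNA of the large cytosolic subunit. The question of the comparison was whether losing TRM4A, TRM4B or TRDMT1 altered any of the rRNA positions.

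The tRNAs that TRDMT1 is known to methylate are shown first, because they give the sequence in which this enzyme works. These are the study's consensus sequences without the 3′ CCA end. The capital letter after the anticodon marks C38, and the 3 adjoining capitals in tRNA-Asp(GTC) mark C48, C49 and C50, the positions of the TRM4 type. Positions follow the standard tRNA numbering.
tRNA-Asp(GTC): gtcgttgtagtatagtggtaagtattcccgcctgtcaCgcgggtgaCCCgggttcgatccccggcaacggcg
tRNA-Gly(CCC): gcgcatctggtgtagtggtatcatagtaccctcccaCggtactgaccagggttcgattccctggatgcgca
tRNA-Gly(GCC): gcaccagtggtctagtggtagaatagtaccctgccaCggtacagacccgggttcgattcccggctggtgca
In all 3 tRNAs C38 stood between A and G.

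The 7 rRNA sites lie in 5 rRNAs of 3 genomes, and their surroundings are given with 10 bases on each side and the measured cytosine in capitals. The sequences are from the deposited reference table, and positions count from 1 at the 5′ end of each reference.
25S C2268, nuclear: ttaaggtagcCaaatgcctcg
25S C2860, nuclear: tttgatccttCgatgtcggct
16S C916, chloroplast: taattcgatgCaaagcgaaga
23S C1940, chloroplast: tataacggtcCtaaggtagcg
23S C1977, chloroplast: aagttccgacCcgcacgaaag
18S C960, mitochondrial: taattcgataCaacgcgcaaa
26S read as C1586, mitochondrial: aagtagcgacCtgcacgaatg
26S read as C1549, mitochondrial: tctaactgtcCtaaggtagcg
The methylation table prints the 26S site as C15860, which is past the end of the 2568-base reference, and the study's text names C1549. C1586 results from dropping the last digit, and C1549 is also the cytosine of the reference whose window was most like that of 23S C1940. The printed number alone does not settle which of the 2 was measured, so the site is called C15860 as printed.

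Organelle sites resembled each other in sequence. The windows of chloroplast 16S C916 and mitochondrial 18S C960 were identical at 17 of 21 bases with site set over site. The other 14 pairs among the 6 sites of known position matched at 2 to 10 bases. The 26S window matched that of 23S C1977 at 17 of 21 bases when read as C1586, and that of 23S C1940 at 19 of 21 when read as C1549. The triplet CCT was found at 23S C1940 and at 26S under both readings, and it held 6.53% of the 2877 cytosines in these rRNAs. The other 5 sites each had a triplet of their own. None of the 7 sites lay between A and G like C38 of the tRNAs, but this triplet held only 5.84% of the cytosines, so its absence from 7 sites is near the background and says nothing about them. The nuclear 25S C2268 and chloroplast 23S C1940 windows contained the same 9-base run, taaggtagc. This run began directly after C1940 in 23S, whereas it ended directly before C2268 in 25S. The windows held 2 other cytosines around 16S C916, 3 around 23S C1940, 6 around 23S C1977 and 4 around each of the remaining sites. Bisulfite turns these into bases read as T when they are unmethylated. A fully converted read over 25S C2268 in which only this cytosine was protected would read ttaaggtagtCaaatgttttg.

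All 7 sites were methylated in the 4 mutants. The level of a site is the percentage of mapped cytosines among mapped cytosines and thymines, so it stands for the share of rRNA molecules protected from conversion in the whole seedling. A lower share in every cell and an unmethylated fraction of cells cannot be told apart. Of the 28 mutant and site pairs, 15 were above wild type, 10 below and 3 equal to it. The mean absolute difference was 3.07 percentage points, and the mutant levels were 73.3% to 112% of wild type. None was more than 10 points from wild type, and 4 were more than 5 points away. Against the soil-grown wild type of the other experiment, 4 pairs were more than 10 points and 8 more than 5 points away. Each genotype had 1 library and the depth at each site is unknown, so none of these differences has an error or a test. Levels are given in whole percent, which alone allows an error of up to 1 point in a difference.

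**Figure D1:**
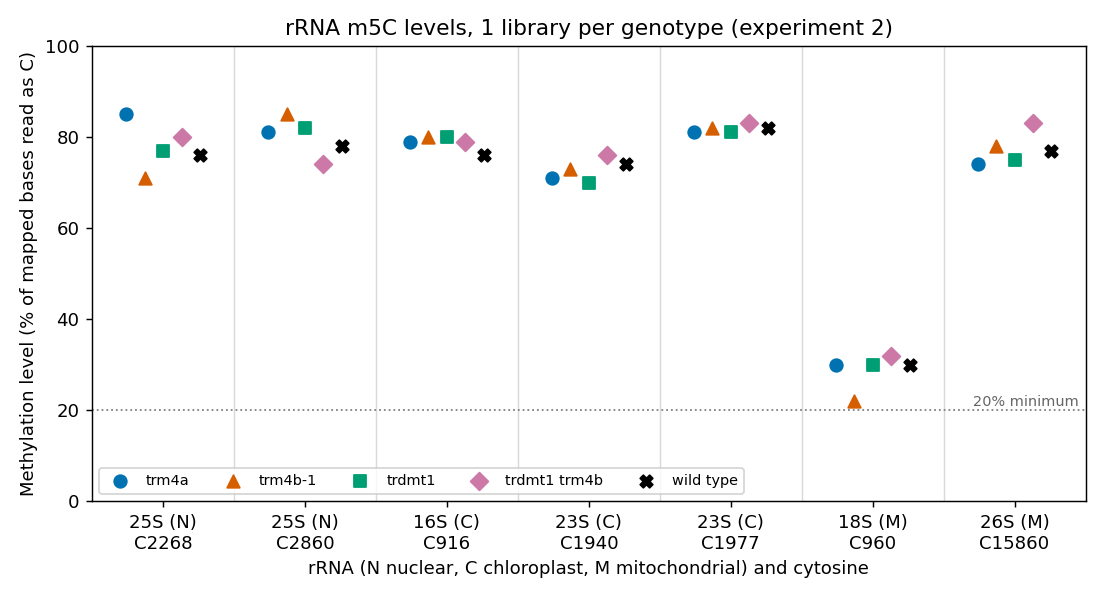
Methylation level in percent (vertical axis) at the 7 rRNA cytosines (horizontal axis), 1 point per library, with the mutants left of wild type at each site. The 6 other positions lie between 70% and 85% in every genotype, while 18S C960 lies between 22% and 32%.

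The 25S rRNA is the only nuclear rRNA with sites in the table. Its C2268 is the cytosine that NSUN5 modifies. C2268 was methylated at 85% in *trm4a*, 71% in *trm4b-1*, 77% in *trdmt1*, 80% in *trdmt1 trm4b* and 76% in wild type. The *trm4a* library was 9 points above wild type, the widest gap of all 28 pairs. The *trm4b-1* library was the only one below wild type, by 5 points. For size, C2268 was at 2% in *nsun5-1* and 29.2% in *nsun5-2* of the soil experiment, against 66% in soil-grown wild type. The plate-grown genotypes covered 14 points, and the soil-grown genotypes without the *nsun5* alleles covered 24 points, 60% to 84%. The plate values are single libraries and most soil values are averages of 2 or 3, so these ranges are not of the same kind.

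The other 25S position, C2860, was at 81% in *trm4a*, 85% in *trm4b-1*, 82% in *trdmt1*, 74% in *trdmt1 trm4b* and 78% in wild type. The *trm4b-1* library was 7 points above wild type, the second of the 4 pairs past 5 points. The double mutant was 4 points below wild type and was the only mutant below it. The same position covered only 3.45 points in the soil experiment without the *nsun5* alleles. The plate-grown single libraries covered 11 points.

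The 2 sites of 25S did not move together. C2268 minus C2860 was 4 points in *trm4a*, -14 in *trm4b-1*, -5 in *trdmt1*, 6 in *trdmt1 trm4b* and -2 in wild type. The mean of both sites varied less, which averaging 2 values that do not move together can give by itself. It was 83% in *trm4a*, 78% in *trm4b-1*, 79.5% in *trdmt1*, 77% in *trdmt1 trm4b* and 77% in wild type. The double mutant and wild type had the same mean although both of their sites differed by 4 points, in opposite directions.

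The chloroplast sites were the steadiest on plates, with ranges over the 5 genotypes of 2 to 6 points compared with 9 to 14 points at the other sites. In the soil experiment without the *nsun5* alleles their ranges were 0.93 to 4 points. Nuclear 25S C2860 was as steady there, with 3.45 points, and the remaining sites covered 16 to 25.7 points. In 23S, the rRNA of the large plastid subunit, C1977 was at 81% in *trm4a*, 82% in *trm4b-1*, 81% in *trdmt1*, 83% in *trdmt1 trm4b* and 82% in wild type. Every mutant was within 1 point of wild type, which is no more than rounding can give. The other 23S site, C1940, lies 37 bases before it and was at 71% in *trm4a*, 73% in *trm4b-1*, 70% in *trdmt1*, 76% in *trdmt1 trm4b* and 74% in wild type. All 3 single mutants were below wild type there, by 1 to 4 points, while the double mutant was 2 points above. C1977 was 7 to 11 points above C1940 in all 5 genotypes, a range of 4 points compared with 20 points between the 2 sites of 25S.

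The C916 position of 16S, in the small plastid subunit, was the only one at which all 4 mutants were above wild type. It was at 79% in *trm4a*, 80% in *trm4b-1*, 80% in *trdmt1*, 79% in *trdmt1 trm4b* and 76% in wild type. The 4 differences of 3 or 4 points rest on the same wild type library. Soil-grown wild type was at 81%, which is above all 4 mutants.

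In mitochondria, 18S C960 of the small subunit was the least methylated site of every library. It was at 30% in *trm4a*, 22% in *trm4b-1*, 30% in *trdmt1*, 32% in *trdmt1 trm4b* and 30% in wild type. The *trm4b-1* level was 8 points below wild type, the only pair more than 5 points below, and amounted to 73.3% of the wild type level. This low value did not recur in the double mutant, which carries the same *trm4b* allele and had the highest level of the 5. It remained above the 20% that the study required of an m5C site. In the soil experiment C960 was at 2.33% in *nop2b-2*, a single library, at 18% in *nop2a-2* and at 24% to 33% in the other genotypes. The chloroplast site with the similar window, 16S C916, was 46 to 58 points higher in each plate-grown library.

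The large subunit site 26S C15860 was at 74% in *trm4a*, 78% in *trm4b-1*, 75% in *trdmt1*, 83% in *trdmt1 trm4b* and 77% in wild type. The double mutant was 6 points above wild type, the last of the 4 pairs past 5 points. The single mutants were within 3 points of wild type.

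**Figure D2:**
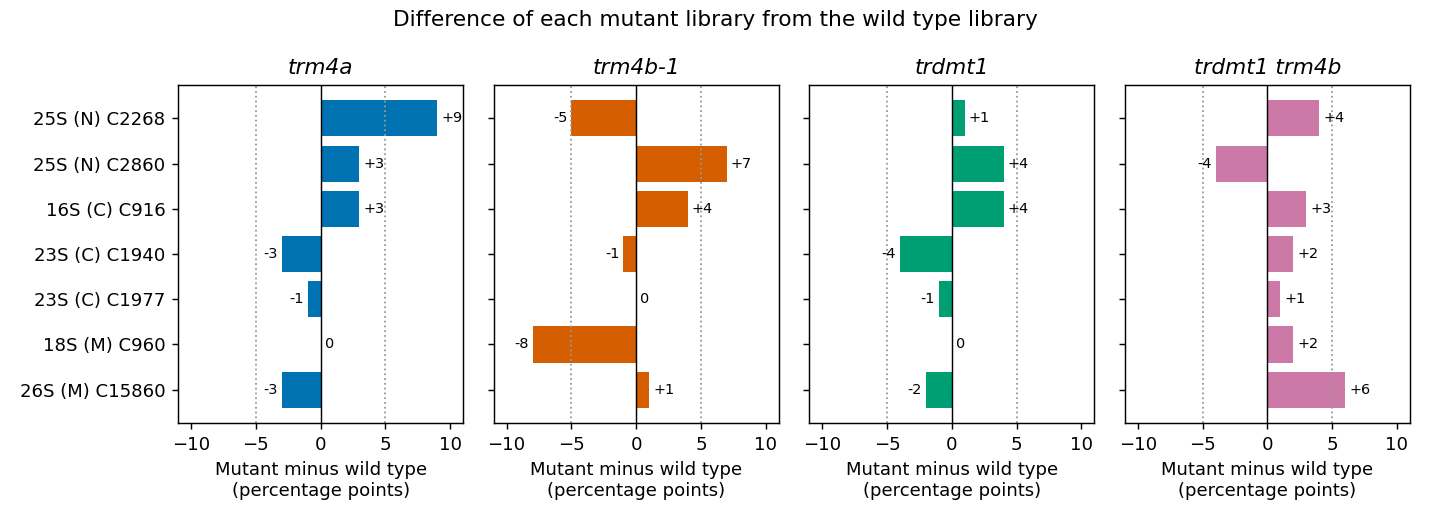
Mutant minus wild type in percentage points (horizontal axis) at each rRNA cytosine (vertical axis), 1 panel per mutant, with dotted lines at 5 points on either side. Bars pass the lines at 25S C2268 in trm4a, 25S C2860 and 18S C960 in trm4b-1, and 26S C15860 in trdmt1 trm4b.

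The *trm4a*, *trm4b-1* and *trdmt1* libraries each had 3 sites above wild type, 3 below and 1 equal, with a median difference of 0. Their mean differences were 1.14 points in *trm4a*, -0.29 in *trm4b-1* and 0.29 in *trdmt1*. These small means depended on the comparator. Against soil-grown wild type they were 2.86 points in *trm4a*, 1.43 in *trm4b-1* and 2 in *trdmt1*, and the double mutant had 3.71. The value of *trdmt1* was -0.57 against the median of the 5 genotypes and -0.33 without either 25S C2860 or 16S C916. The *trdmt1* library was the nearest to wild type, with a mean absolute difference of 2.29 points and none above 4. The *trm4b-1* library was the farthest, at 3.71 points. By compartment, the largest mean was that of *trm4a* at the nuclear sites, 6 points. The double mutant differed in that 6 of its 7 sites were above wild type, with a mean difference of 2 points. It was above wild type at all 3 chloroplast sites, by 2 points on average, and at both mitochondrial sites, by 4 points on average. At 23S C1977 the difference was 1 point, which rounding can give. The median over the 7 sites was 79% in *trdmt1 trm4b* and in *trm4a*, 78% in *trm4b-1*, 77% in *trdmt1* and 76% in wild type. These counts and means were not adjusted for that offset between libraries.

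The mutants differed from each other somewhat more than from wild type, by 4.05 compared with 3.07 points on average. The mean absolute difference was 2.29 to 3.71 points in the 4 pairs of a mutant and wild type and 1.71 to 5.71 points in the 6 pairs of mutants. The closest libraries were *trm4a* and *trdmt1*, which were within 1 point at every site except C2268, where *trm4a* was 8 points higher. The most distant were *trdmt1 trm4b* and *trm4b-1*. Plate-grown and soil-grown wild type differed by 4.29 points on average, with 76% on plates and 66% on soil at C2268. The 5 soil-grown *nop2* mutants differed from soil-grown wild type by 2.14 to 4.71 points. Differences between growth media and between experiments cannot be told apart.

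**Figure D3:**
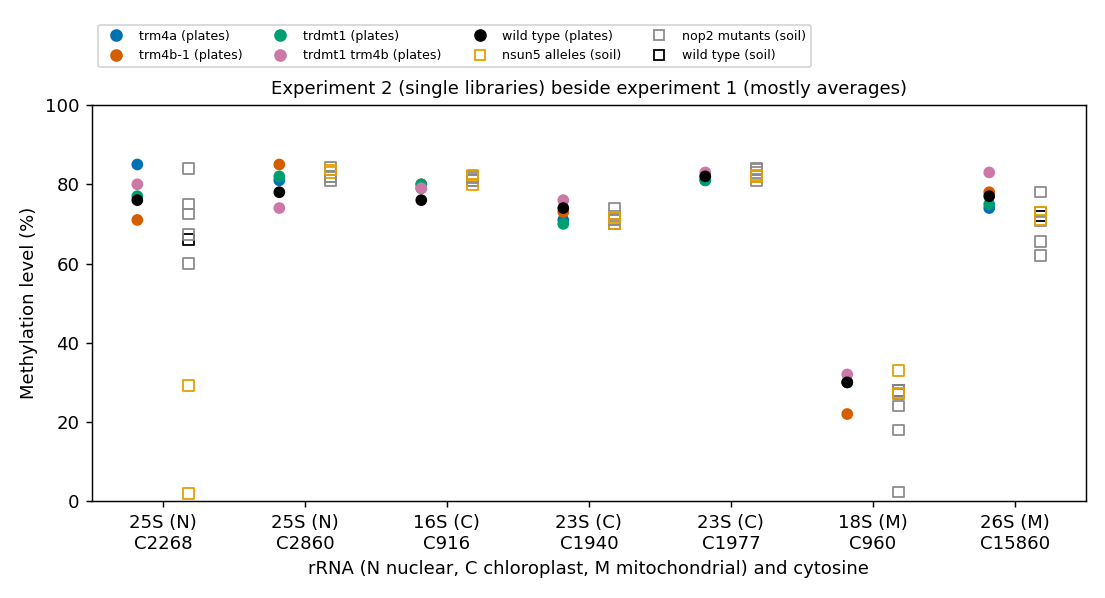
Methylation level in percent (vertical axis) at each rRNA cytosine (horizontal axis), with plate-grown genotypes of 1 library each as filled circles and soil-grown genotypes, mostly averages, as open squares. The only separated low points are both nsun5 alleles at 25S C2268 (2% and 29.2%) and nop2b-2 at 18S C960 (2.33%), all grown on soil.

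The double mutant allows the loss of TRM4B to be read beside that in wild type, with 1 library per genotype and no test. Compared with *trdmt1*, *trdmt1 trm4b* was 1.71 points higher on average, but -0.29 points when each library was centred on its median over the sites. Compared with *trm4b-1* it was 2.29 points higher, and 1.29 after centring. Without centring, it lay outside the interval between its 2 single mutants at every site. It was above both at 5 sites and below both at 25S C2860 and 16S C916, although by only 1 point at 16S C916 and 23S C1977. The medians over the sites were 79% in *trdmt1 trm4b*, 77% in *trdmt1* and 78% in *trm4b-1*, so these counts depend on an offset between the libraries. At C2860 the level was 74% in the double mutant, against 82% in *trdmt1* and 85% in *trm4b-1*. The 2 single differences added to wild type would give 89% at C2860, 15 points above the double mutant. At 18S C960 the same sum would be 22% and the double mutant had 32%. The double mutant exceeded the sum by 8 points at C2268, by 7 points at each of 23S C1940 and 26S C15860, and by 2 points at 23S C1977. It was 5 points below the sum at 16S C916. Each of these values combines 4 libraries, so rounding alone allows up to 2 points.

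**Figure D4:**
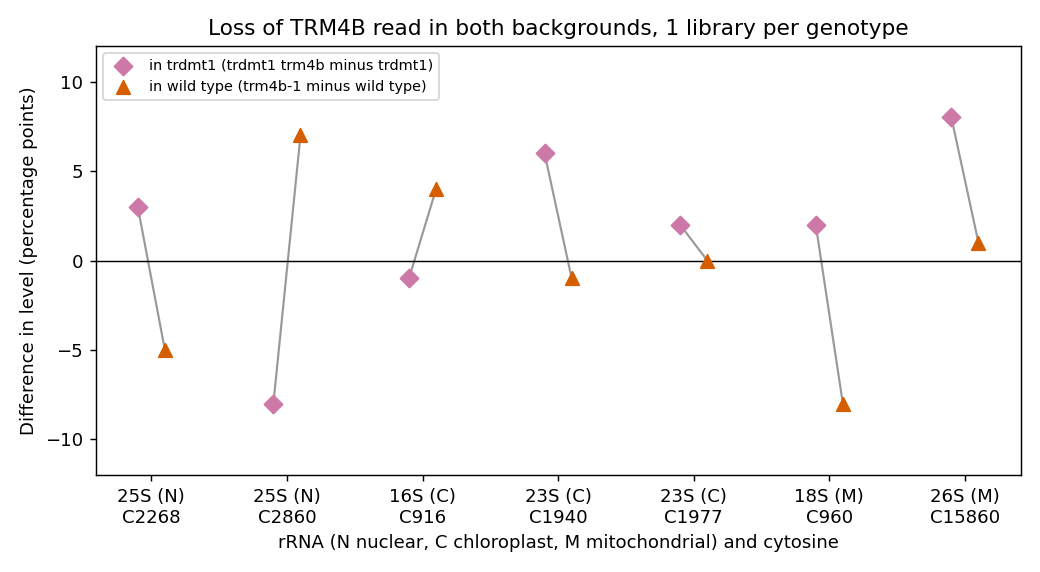
Difference in methylation level in percentage points (vertical axis) at each rRNA cytosine (horizontal axis), as trdmt1 trm4b minus trdmt1 (diamonds) and trm4b-1 minus wild type (triangles). The symbols lie on opposite sides of 0 at 5 of 7 sites and are farthest apart at 25S C2860, with -8 and 7 points.

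The order of the sites within a library also varied. The highest site was 25S C2268 in *trm4a*, 25S C2860 in *trm4b-1* and *trdmt1*, and 23S C1977 in wild type. In the double mutant 23S C1977 and 26S C15860 were both highest, at 83%. The upper 6 sites spanned 14 points in *trm4a*, 14 in *trm4b-1*, 12 in *trdmt1*, 9 in *trdmt1 trm4b* and 8 in wild type. The gap from 18S C960 to the next site was 40 to 49 points, the widest step in the order of every library.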

How the data were processed

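DNase-treated total RNA was bisulfite converted and sequenced by the authors on an Illumina MiSeq. According to the methods, reads were mapped with CLC Genomics Workbench (version not given in the sources used here) to rRNA references with every cytosine turned to thymine, and sites needed 5 reads and 20%. Reads that keep many cytosines can be lost in such mapping. The labels name TAIR 10. The deposited values are percent methylation, from 1 library per genotype in whole percent. The authors' conversion control was not analysed here. A protected base was taken as m5C, which the chemistry alone does not prove. Deposited counts of sites per rRNA were not used beyond the sequences beside them.

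Columns were matched to genotypes by name. Differences in percentage points, means and sequence windows were computed in Python 3.11.15 and plotted with matplotlib 3.10.9. With 1 library per genotype no test was run. All 7 sites are named, and pairs more than 5 points from wild type are described singly. The genotypes, sites and limits were chosen with earlier results of these data known. Alternatives changed the comparator, the sites, the mutants or the scale. Loci were named from the RefSeq gene table of TAIR10.1, without coordinates.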

Additional observations from a re-analysis of the deposited data

Results flagged for a closer look

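Loss of TRM4B went with differences of opposite sign in the *trdmt1* and wild type backgrounds at 5 of 7 sites. Loss of TRDMT1 did so in the *trm4b-1* and wild type backgrounds at 5 of 7 sites as well. Both counts come from the same libraries, so they are not independent and cannot show whether the pattern is particular to TRM4B. No background share is known for either count. The difference between the backgrounds (*trdmt1 trm4b* minus *trdmt1*, less *trm4b-1* minus wild type) was -15 points at 25S C2860, 10 points at 18S C960, 8 points at 25S C2268, 7 points at 23S C1940 and -5 points at 16S C916. With 1 library per genotype the difference was not tested. For loss of TRM4B, 1 of the 2 values at 16S C916 and at 23S C1940 is a single point, which rounding can give. For loss of TRDMT1 the same holds at 16S C916 (-1 and 4 points) and for both values at 23S C1977 (1 and -1).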

How the results depend on the processing

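Of 87 alternatives over 17 results, 82 moved the value by less than 3.64 points, kept a count within 1.5 times or, on the logit scale, kept its sign. The limit of 3.64 points exceeded the mean absolute difference of 3.07 points. It also exceeded every mean signed difference over all sites except the 3.71 points of *trdmt1 trm4b* against soil-grown wild type. Changes of sign in those means were therefore counted among the 82, which do not show that the means are stable. Centring could not alter the differences between the backgrounds, because the library medians cancelled. This limit was computed from the gaps between the plate and soil wild types at each site, as if they were equal replicates. The plate value is 1 library and the soil value an average of 3, so the limit is not the SD of a library. With soil-grown wild type as comparator, 8 pairs in place of 4 were more than 5 points away and 4 in place of 0 were more than 10 points away, 3 of them at 25S C2268 (19 points in *trm4a*, 11 in *trdmt1* and 14 in *trdmt1 trm4b*) and 1 at 26S C15860 (11 points in *trdmt1 trm4b*). As a percentage of wild type, 12 differences exceeded 5% and 2 exceeded 10%. The mean difference of *trm4a* was 6 points over the nuclear sites in place of 1.14, and -0.17 without 25S C2268. That of *trm4b-1* was 1 point without 18S C960 in place of -0.29. Centred on each library's median, the double mutant averaged -0.29 points relative to *trdmt1* in place of 1.71, a change of sign within that limit. A coverage minimum of 20 reads could not be applied because the depth is unknown. No paired analysis was possible because each genotype had 1 library.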
